A study of Homo sapiens with 6 samples.

Results

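The miR-30 family is a group of miRNAs whose 5p strands begin with the same bases and are therefore predicted to bind overlapping sets of mRNAs. Its level was examined in small extracellular vesicles (EVs) released by Cal27 spheroids. The members were chosen by name from the miRNA count table. Of 7 names considered, 6 had a row among the 471 rows of the table, namely hsa-miR-30a-5p, hsa-miR-30a-3p, hsa-miR-30c-5p, hsa-miR-30d-5p, hsa-miR-30e-5p and hsa-miR-30e-3p, written without the species prefix from here on. miR-30b-5p was not analysed here. Cal27 is a human oral squamous cell carcinoma line, and all EVs came from this single unmodified line. Spheroids were grown on Matrigel, a basement membrane gel, at 3 mg/mL (EV_soft) or 12 mg/mL (EV_stiff), and EVs were taken from the day 14 medium of both groups. Small RNA was sequenced from 3 EV samples of each group, which the labels call biological replicates. Per the study's methods, replicate EVs were isolated separately from media of separate culture experiments, with Matrigel of the same batch. The gel with more Matrigel also held more matrix protein, so stiffness and protein amount cannot be told apart in this design. The question was whether the stiffness of the matrix changes the miRNA cargo of the EVs.

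A miRNA hairpin is cut by Drosha and Dicer into a short duplex with a 5p and a 3p strand. An Argonaute protein keeps mainly 1 strand of the duplex, which then guides repression of mRNAs that pair with its seed, bases 2 to 8. In the miR-30 family the 5p strand is usually the more abundant guide. The family is known for holding epithelial cells in their epithelial state, in part by repression of the transcription factor SNAI1, and for repression of the matrix-associated growth factor CCN2. The 3p strands carry another seed and so have another set of predicted targets.

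The mature sequences below are shown because the strands of miR-30a and miR-30e, whose reads are compared within each library, carry different seeds. They were read from RefSeq (GRCh38.p14), 5′ to 3′, with the seed in capitals.
miR-30a-5p: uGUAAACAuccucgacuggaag
miR-30e-5p: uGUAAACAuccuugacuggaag
miR-30c-5p: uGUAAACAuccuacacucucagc
miR-30a-3p: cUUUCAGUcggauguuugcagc
miR-30e-3p: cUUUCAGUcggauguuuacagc
The 3 5p strands printed here shared the seed GUAAACA, and the 2 3p strands shared the seed UUUCAGU. miR-30d-5p and miR-30b-5p are the other 5p strands of the family. Counted from the 5′ end, miR-30a-5p and miR-30e-5p differ by the single substitution C13U, and miR-30a-3p and miR-30e-3p by the single substitution G18A. Reads of miR-30a and miR-30e with a sequencing error at that base could thus be assigned to the other gene. miR-30c-5p differs from miR-30a-5p at 5 of the 22 bases compared.

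Both strands of a hairpin come from the same precursor, which is shown for the 2 hairpins whose arms were both tested, with the mature strands in capitals.
MIR30A: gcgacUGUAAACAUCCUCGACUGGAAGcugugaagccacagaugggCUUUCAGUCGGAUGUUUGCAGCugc
MIR30E: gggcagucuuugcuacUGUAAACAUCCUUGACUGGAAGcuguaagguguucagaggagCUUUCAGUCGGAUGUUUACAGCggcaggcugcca
The MIR30A hairpin spans chr6:71403551-71403621 on the minus strand of GRCh38, inside an intron of the lncRNA gene LINC00472. The MIR30E hairpin spans chr1:40754355-40754446 on the plus strand, inside an intron of NFYC, which encodes a subunit of the transcription factor NF-Y. miR-30c-5p has 2 source hairpins with the same mature sequence. MIR30C1 lies 2837 bases from MIR30E in an intron of NFYC, and MIR30C2 lies 26519 bases from MIR30A in an exon of LINC00472, so a read of miR-30c-5p cannot be assigned to either.

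The miRNA counts of the libraries summed to between 28688 and 66345, and each EV_soft library exceeded each EV_stiff library. Counts were scaled with TMM factors, which assume that most miRNAs keep their level relative to the others, and are given as CPM, a miRNA's counts scaled to the same total in each library. A count of 0 would allow up to 3 counts, equal to between 44.8 and 108 CPM, which covers counting error only. Of the 4 miRNAs listed for squamous epithelium, 4 were detected, at 6.11% to 6.81% of counts in EV_soft and 5.03% to 5.2% in EV_stiff. A list of 7 blood and serum miRNAs, 5 of them with a row, made up 0.0467% to 0.161% in EV_soft and 0.0358% to 0.199% in EV_stiff. The liver miRNA miR-122-5p made up 0.279% to 0.449% in EV_soft and 0.616% to 0.729% in EV_stiff, without overlap. The medium held bovine serum depleted of EVs, and the part of serum RNA in the results was not tested. In such bulk EV samples, fewer EVs that carry a miRNA and fewer copies per EV cannot be told apart.

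As a sum, the 5p strands of the family took a smaller part of the EV miRNA reads in EV_stiff. This sum was mostly miR-30d-5p, with a mean of 60.2% of member reads in EV_soft and 56.3% in EV_stiff, and miR-30a-5p, with 28.1% and 23.9%. The means of miR-30e-5p were 2.29% and 1.86%, and those of miR-30c-5p 0.712% and 1.22%. Together miR-30a-5p, miR-30c-5p, miR-30d-5p and miR-30e-5p made up 2.09%, 2.16% and 2.22% of the miRNA counts in the EV_soft libraries. They made up 1.72%, 1.53% and 1.35% in the EV_stiff libraries. The groups did not overlap, with means of 2.16% ± 0.0645 (SD, n = 3) and 1.53% ± 0.189 (SD, n = 3). The 3p strands miR-30a-3p and miR-30e-3p went the other way as a share of counts. They made up 0.259%, 0.153% and 0.205% in EV_soft and 0.303%, 0.314% and 0.303% in EV_stiff, again without overlap. Such separation was common, since in CPM 47.6% of all miRNAs tested did not overlap between the groups, 24.8% with EV_stiff lower. In reads, the 5p strands summed to 1092 ± 335 (SD, n = 3) per library in EV_soft and 456 ± 66.2 (SD, n = 3) in EV_stiff. The 3p reads summed to 105 ± 39.9 (SD, n = 3) and 91 ± 1.73 (SD, n = 3), which overlapped.

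**Figure D1:**
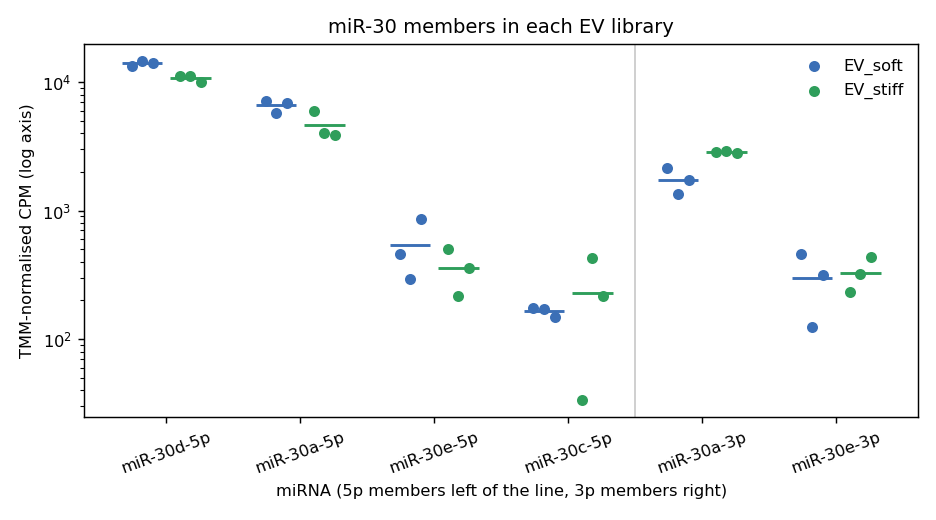
TMM-normalised CPM of the 6 miR-30 members on a log axis, with 1 point per library, a bar at the mean of each group, EV_soft in blue and EV_stiff in green. miR-30d-5p was the most abundant member in all 6 libraries, miR-30a-3p lay higher in the 3 EV_stiff libraries, and the lowest miR-30c-5p point is a single read.

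The members had a clear order of abundance among the higher ones. miR-30d-5p came first in all 6 libraries, at a mean of 12382 CPM, followed by miR-30a-5p at 5590 CPM and miR-30a-3p at 2302 CPM, and the ranges of these neighbours did not overlap. Below them were miR-30e-5p at 450 CPM, miR-30e-3p at 315 CPM and miR-30c-5p at 196 CPM. Neighbours among these lower 3 overlapped in range, and miR-30e-5p exceeded miR-30e-3p in 3 of 6 libraries, so their order was not separated from the spread. By total count miR-30d-5p ranked 21 among the 471 rows and miR-30c-5p ranked 119.

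Of the 6 members with a row, 5 passed edgeR's filter on low counts and were tested among 105 miRNAs in all. Of these 5, 2 had an adjusted p of at most 0.05 (edgeR's quasi-likelihood test with Benjamini-Hochberg adjustment over all 105), miR-30a-3p higher and miR-30d-5p lower in EV_stiff, where 23.8% of all miRNAs tested passed, 12.4% higher and 11.4% lower. With an absolute log2 fold change above 0.58 as a further threshold, 1 of 5 was called, miR-30a-3p, where 18.1% of all miRNAs were called, 10.5% higher and 7.62% lower. The 3 tested 5p members all had negative log2 fold changes, with a median of -0.51. Of the 105 miRNAs, 57 had negative values, with a median of -0.04 over all 105. The other 5p member, miR-30c-5p, was left out by the filter and was at 0.37 ± 0.73 (standard error) in a fit without it.

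miR-30d-5p had the smallest adjusted p of the family. It had 607, 592 and 945 reads in the EV_soft libraries and 334, 310 and 277 in the EV_stiff libraries. As CPM these were 13338, 14594 and 14107 in EV_soft and 11125, 11142 and 9986 in EV_stiff. Every EV_soft library was above every EV_stiff library in reads, where the EV_soft totals were larger too, and in CPM. In CPM this was the case for 47.6% of all miRNAs tested in either direction and for 24.8% with EV_stiff lower. miR-30d-5p fell by 0.38 on the log2 scale, with a standard error of 0.10 and an edgeR adjusted p of 0.0226. This fall of 1.30-fold missed the fold threshold. The adjusted p was 0.0546 without EV_soft replicate 3, and 0.0549, 0.0969 and 0.0796 without EV_stiff replicate 1, 2 and 3, while the log2 fold change stayed between -0.43 and -0.32 in the 6 fits that left out 1 library.

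The level of miR-30a-5p, the usual guide strand of MIR30A, was 7097, 5769 and 6867 CPM in EV_soft and 5962, 3989 and 3857 CPM in EV_stiff. The groups overlapped through EV_stiff replicate 1, which was above EV_soft replicate 2. Its reads, 323, 234 and 460 against 179, 111 and 107, did not overlap. Neither did the total miRNA counts of the libraries, at least 39211 in EV_soft and at most 30685 in EV_stiff. Reads without scaling thus cannot separate a fall of miR-30a-5p from the lower depth. The log2 fold change of -0.51 had a standard error of 0.18, an edgeR adjusted p of 0.0632 and a 95% interval from -0.92 to -0.11 that is not adjusted for the number of miRNAs. When single libraries were left out it passed without EV_stiff replicate 1, at -0.76 (adjusted p = 0.0186), and without EV_soft replicate 2, at -0.60 (adjusted p = 0.00620). It did not pass without EV_soft replicate 1, at -0.47 (adjusted p = 0.0739), or replicate 3, at -0.48 (adjusted p = 0.143). Nor did it without EV_stiff replicate 2, at -0.41 (adjusted p = 0.201), or replicate 3, at -0.39 (adjusted p = 0.183). Over all 19 alternative settings miR-30a-5p had an adjusted p of at most 0.05 in 8. With reads thinned to the smallest library it passed in edgeR (adjusted p = 0.0404). There miR-30a-3p (adjusted p = 0.0665) and miR-30d-5p (adjusted p = 0.0517) did not. All 3 passed with edgeR's likelihood ratio test, library size only, at least 10 counts in every library or the replicate block.

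The other strand of the same hairpin, miR-30a-3p, was the member called higher in EV_stiff. Its level was 2153, 1356 and 1717 CPM in EV_soft and 2864, 2911 and 2812 CPM in EV_stiff. All EV_stiff libraries lay above all EV_soft libraries. In CPM the groups did not overlap for 47.6% of all miRNAs tested in either direction, and for 24.8% with EV_stiff lower. The EV_stiff libraries were close together, with an SD of 49.7 CPM against 399 CPM in EV_soft. miR-30a-3p rose by 0.71 on the log2 scale, with a standard error of 0.21 and an edgeR adjusted p of 0.0308, a rise of 1.64-fold. Its reads numbered 98, 55 and 115 in EV_soft and 86, 81 and 78 in EV_stiff and overlapped, so the rise is one in proportion to the remaining miRNA reads. The adjusted p was 0.0997 without EV_soft replicate 3, and 0.0789, 0.0639 and 0.0708 without EV_stiff replicate 1, 2 and 3. Without EV_soft replicate 2, the lowest library of that group, the adjusted p was 0.0408 and the log2 fold change was 0.57, under the fold threshold.

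**Figure D2:**
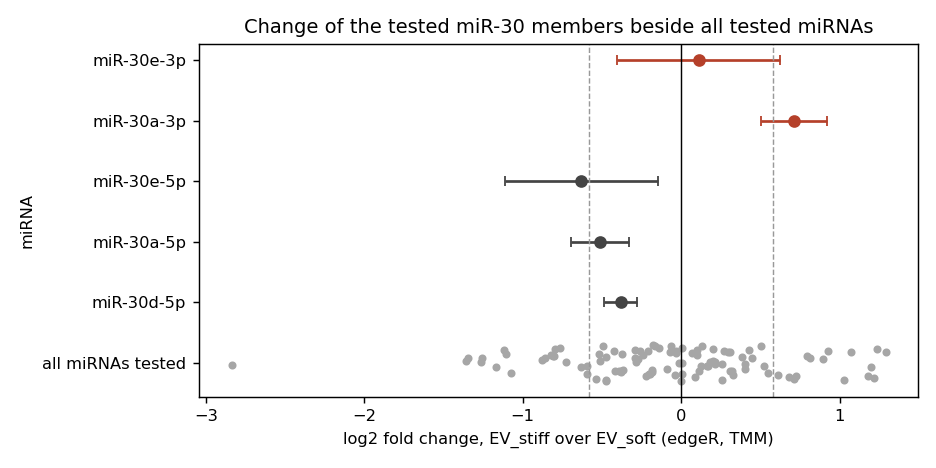
Log2 fold change of EV_stiff over EV_soft for the 5 tested miR-30 members (points with standard error bars, 3p strands in red) above the values of all 105 tested miRNAs (grey, spread vertically at random), with dashed lines at the fold threshold of 0.58 in either direction. The 3 5p strands lie left of 0 and miR-30a-3p lies at 0.71.

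Both strands of MIR30E were rare and neither passed the test. miR-30e-5p had 21, 12 and 58 reads in EV_soft and 15, 6 and 10 in EV_stiff, with overlap, and stood at -0.63 ± 0.48 (standard error) on the log2 scale, with an edgeR adjusted p of 0.361. EV_soft replicate 3 supplied the highest value, and without it the log2 fold change was -0.08. miR-30e-3p had 21, 5 and 21 reads in EV_soft and 7, 9 and 12 in EV_stiff, with overlap, and stood at 0.11 ± 0.51 (standard error), with an edgeR adjusted p of 0.916. The 95% intervals, from -1.70 to 0.44 and from -1.03 to 1.25, do not exclude changes as large as those of the MIR30A strands in the same direction. miR-30c-5p, with 8, 7 and 10 reads in EV_soft and 1, 12 and 6 in EV_stiff, was too rare for the filter. In a fit without a filter it was at 0.37 on the log2 scale, with a standard error of 0.73 and an edgeR adjusted p of 0.757.

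The values of single members depended on how the libraries were scaled, and the EV_stiff libraries had fewer miRNA reads. When each library was given the same size, which leaves the reads unscaled, the median log2 fold change of all 105 miRNAs was -0.89. In that fit 57 of the 105 had an adjusted p of at most 0.05. miR-30d-5p was then at -1.22, miR-30a-5p at -1.36 and miR-30e-5p at -1.54, each with an adjusted p of at most 0.0147, and miR-30a-3p was at -0.13 (adjusted p = 0.735). Relative to that median the 4 values were -0.33, -0.47, -0.65 and 0.76. Scaled by total counts alone, by RLE or by upper quartile, miR-30a-3p had log2 fold changes of 0.64, 0.77 and 0.78, each with an adjusted p of at most 0.0459, so its positive sign held under these scalings and not without scaling.

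The ratio of the 2 strands of a hairpin within a library is free of this choice. For miR-30a, the 3p strand made up 23.3%, 19.0% and 20% of the 421, 289 and 575 reads of both strands in the EV_soft libraries. It made up 32.5%, 42.2% and 42.2% of the 265, 192 and 185 reads in the EV_stiff libraries. The groups did not overlap. The closest libraries were EV_soft replicate 1, with an exact 95% binomial interval from 19.3% to 27.6%, and EV_stiff replicate 1, from 26.9% to 38.5%, and these 2 intervals overlapped slightly. These intervals cover counting error only.

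On the log2 scale, the 3p to 5p read ratio of miR-30a was -1.93 ± 0.19 (SD, n = 3) in EV_soft and -0.65 ± 0.35 (SD, n = 3) in EV_stiff. The difference of 1.28 corresponds to a 2.42-fold higher ratio of 3p to 5p reads in EV_stiff. The exact two-sided permutation test over libraries gave p = 0.1, the smallest that 3 against 3 allows, and 0.267 after adjustment over the 8 hairpins whose arms were both tested. limma, fitted to the log2 ratios of these 8 hairpins, gave an adjusted p of 0.0261 (standard error 0.44, 95% interval from 0.38 to 2.17). It estimated 1 spread for all 8 hairpins, larger than the SDs of miR-30a and smaller than those of miR-30e. Of the 8 hairpins 2, or 25%, had a limma adjusted p of at most 0.05, and 3, or 37.5%, did not overlap between groups. The limma adjusted p was 0.115 without EV_soft replicate 3, and 0.0974 and 0.134 without EV_stiff replicate 2 and 3, with differences of 1.24, 1.18 and 1.18.

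**Figure D3:**
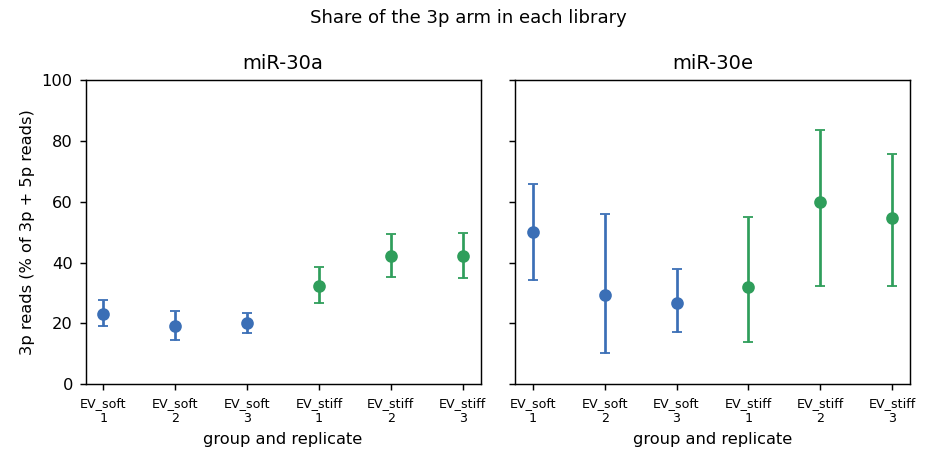
Share of 3p reads among the reads of both strands of miR-30a (left) and miR-30e (right) in each library, with exact 95% binomial intervals for counting error, EV_soft in blue and EV_stiff in green. For miR-30a the EV_soft libraries lie between 19.0% and 23.3% and the EV_stiff libraries between 32.5% and 42.2%, and for miR-30e the groups overlap and the intervals are wide.

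For miR-30e the 3p strand made up 50.0%, 29.4% and 26.6% of 42, 17 and 79 reads in EV_soft and 31.8%, 60.0% and 54.5% of 22, 15 and 22 reads in EV_stiff. The groups overlapped. The log2 ratio was -0.88 ± 0.77 (SD, n = 3) in EV_soft and -0.08 ± 0.85 (SD, n = 3) in EV_stiff, a difference of 0.79. This had the same sign as for miR-30a, with a limma adjusted p of 0.160 and an exact permutation p of 0.2 (0.32 adjusted over the 8 hairpins). It passed in limma without EV_soft replicate 1, at 1.23 (adjusted p = 0.0297), and without EV_stiff replicate 1, at 1.28 (adjusted p = 0.0355). It did not pass without EV_soft replicate 2, at 0.64 (adjusted p = 0.489), or replicate 3, at 0.51 (adjusted p = 0.669). Nor did it without EV_stiff replicate 2, at 0.48 (adjusted p = 0.677), or replicate 3, at 0.63 (adjusted p = 0.377). Since the strands of miR-30a and miR-30e each differ by a single base, their reads were also added up per strand, an alternative chosen after seeing the data. The log2 ratio was then -1.53, -2.03 and -1.93 in EV_soft and -1.06, -0.38 and -0.38 in EV_stiff. The difference was 1.22 (limma adjusted p = 0.0173, exact permutation p = 0.1), and assignment of reads between the 2 genes does not enter it.

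**Figure D4:**
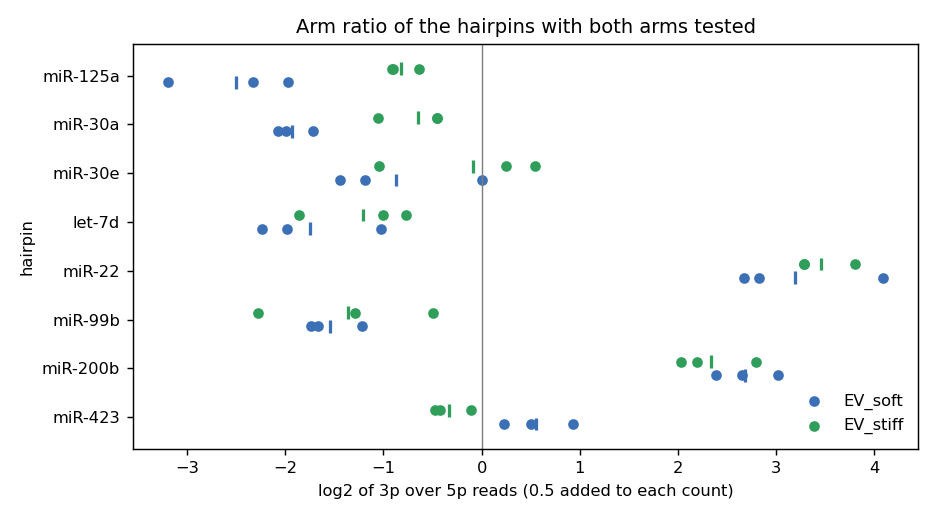
Log2 ratio of 3p to 5p reads in each library for the 8 hairpins whose strands were both tested, with short bars at group means, EV_soft in blue and EV_stiff in green. The groups are apart for miR-30a and overlap for miR-30e. They are also apart for miR-125a, with a higher ratio in EV_stiff, and for miR-423, with a lower ratio (log2 difference -0.88, limma adjusted p = 0.140).

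Ratios between family hairpins are also free of scaling. The log2 ratio of miR-30a-5p to miR-30d-5p reads was -1.10 ± 0.22 (SD, n = 3) in EV_soft and -1.25 ± 0.31 (SD, n = 3) in EV_stiff, and the groups overlapped. The ratio of miR-30a-3p to miR-30d-5p was -3.03 ± 0.40 (SD, n = 3) in EV_soft and -1.91 ± 0.07 (SD, n = 3) in EV_stiff, without overlap. Among all reads of the 6 members, miR-30a-3p took 9.09%, 6.08% and 7.15% in EV_soft and 13.8%, 15.3% and 15.9% in EV_stiff. The share of every other member overlapped between the groups.

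The strand use of the family hairpins differed in depth and in kind. MIR30D is at chr8:134804876-134804945 on the minus strand, in an intron of the lncRNA gene ENSG00000289405. Its 3p strand was nearly absent, with 3 reads in the 6 libraries beside 3065 reads of miR-30d-5p, or 0.0978% (exact 95% interval from 0.0202% to 0.285%). Its counts allowed no comparison between groups. The 3p strands of the MIR30C hairpins, miR-30c-1-3p and miR-30c-2-3p, had 4 and 19 reads in all, beside 44 reads of miR-30c-5p. All 4 reads of miR-30c-1-3p were from EV_soft replicate 2. miR-30b-3p had 6 reads in all, 5 of them in EV_soft. The filter left these 4 minor strands out, and without a filter their edgeR adjusted p lay between 0.679 and 0.681.

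Outside the family, the 5 tested miRNAs whose centred log2 CPM lay closest to that of miR-30a-3p over the 6 libraries were miR-320b, miR-320a, miR-1246, miR-320d and miR-320c. Their root mean square differences from it were between 0.12 and 0.22 on the log2 scale, where the median over all tested miRNAs was 0.53. These 5 were themselves higher in EV_stiff, with log2 fold changes between 0.53 and 0.93. Those closest to the sum of the 5p members were miR-27b-3p, miR-7-5p, let-7i-5p, miR-21-5p and miR-200b-5p, at 0.035 to 0.114, with a median of 0.39 over all tested miRNAs. miR-30a-3p itself lay 0.61 from the sum of the 5p members. These distances are descriptions over 6 libraries that share the scaling factors, and they include the difference between the groups.

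Other miRNA groups with related roles were set beside the family. Of all 105 miRNAs tested, 18.1% were called, 10.5% higher and 7.62% lower in EV_stiff. Of 7 miRNAs of the epithelial state, which include the miR-200 family that represses ZEB1 and ZEB2, 6 were tested and 3 were called lower and 0 higher in EV_stiff, with a median log2 fold change of -0.75. The 3 were miR-200c-3p at -1.10, miR-200b-3p at -0.73 and miR-200a-3p at -1.12. The other 3 did not pass, namely miR-429 at -0.76 (edgeR adjusted p = 0.0745) and, with positive values, miR-203a-3p at 1.21 (adjusted p = 0.127) and miR-205-5p at 0.20 (adjusted p = 0.168). These 3 were named after their values were seen. In this list 4 had an unadjusted p under 0.05, and DESeq2 called 3. Of 10 miRNAs known to act on matrix genes, such as the miR-29 family that represses collagens, 3 were tested, with a median of -0.26. Here edgeR called 0, with 0 at an unadjusted p under 0.05, and DESeq2 called 0. Of 9 let-7 miRNAs, another abundant family with a shared seed, 1 was called higher (let-7c-5p, 0.68) and 0 lower, with a median of -0.06. An unadjusted p under 0.05 was found for 2, and DESeq2 called 1. The other of these 2 was let-7i-5p, lower at -0.42 (edgeR adjusted p = 0.00695) and short of the fold threshold.

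**Figure D5:**
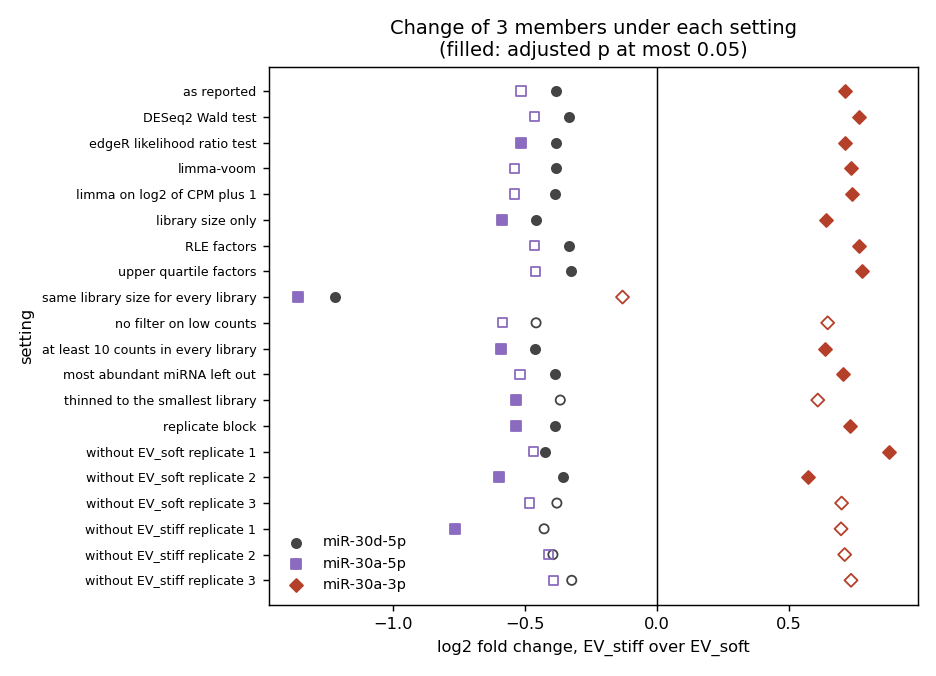
Log2 fold change of EV_stiff over EV_soft for miR-30d-5p, miR-30a-5p and miR-30a-3p as reported and under each of the 19 alternative settings, with filled symbols where the adjusted p was at most 0.05. Both 5p strands are below 0 in each setting, and miR-30a-3p is above 0 except when each library is given the same size, at -0.13.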

How the data were processed

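Small RNA from EVs of 3 EV_soft and 3 EV_stiff samples was examined, with groups and replicate numbers taken from the sample titles. The authors deposited raw read counts per miRNA name, made after quality control with the exceRpt pipeline by counting features as defined in RefSeq. The processing notes name hg38. The aligner and any removal of duplicate reads are not given in the sources used here. The smallest chi-square between libraries was 3.40 per degree of freedom over 15 pairs, so none was taken for a copy.

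edgeR 4.0.16 in R 4.3.3 was run on the raw counts (filterByExpr, TMM, quasi-likelihood test, Benjamini-Hochberg adjustment over 105 miRNAs), with limma 3.58.1 for strand ratios and DESeq2 1.42.0 as an alternative. A miRNA was called at an adjusted p of at most 0.05 together with a log2 fold change beyond 0.58 in either direction. The standard error is the size of the log2 fold change divided by the square root of F. Strand ratios used counts plus 0.5. The scripts were tested on simulated data.

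The miRNAs named are the members, the other arms of their hairpins, and hairpins with a limma call or without overlap between groups. Also named are the 5 nearest to miR-30a-3p and to the summed 5p members, and list members that were called. The members and lists were chosen with earlier results of these data known. Depth was 28688 to 66345 counts per library. Lists of stroma (4 miRNAs, 0 tested, at most 0.0168% of counts) and muscle (3 miRNAs, 1 tested, 0 called, 0 at an unadjusted p under 0.05) were also examined. Alternatives covered other tests, scalings and filters, reads thinned to the smallest library, removal of the most abundant miRNA or of single libraries, and a block on the replicate number.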

Additional observations from a re-analysis of the deposited data

How the results depend on the processing

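The number of members called was 1, and also 1 under 8 of the 13 alternatives other than leaving out a library. It was 2 with library size only and with at least 10 counts in every library, where miR-30a-5p was added. It was 3 when every library was given an equal size (miR-30d-5p, miR-30a-5p and miR-30e-5p, all lower). It was 0 with no filter on low counts and after thinning to the smallest library. Over all miRNAs, the calls were 57 of 105 with equal sizes, 15 of 464 with no filter and 16 of 103 after thinning. They were 19 of 105 with library size only and 22 of 87 with at least 10 counts. Leaving out 1 library gave between 0 and 1 member called, where between 13 and 19 of all miRNAs were called. The call was miR-30a-5p in place of miR-30a-3p without EV_soft replicate 2 and without EV_stiff replicate 1. The number of members with an adjusted p of at most 0.05 was 2. It was 0 for no filter on low counts, 1 after thinning (miR-30a-5p), between 0 and 3 when a library was left out, and 2 or 3 in the other settings. Over all miRNAs, 17 of 464 passed with no filter, 22 of 103 after thinning and between 19 and 30 without 1 library. The log2 fold change of miR-30a-3p was -0.13 with equal library sizes, and that of miR-30e-3p was -0.74 there and between -0.21 and 0.30 when a library was left out. Without a filter the standard error of miR-30d-5p was 0.17, beside 0.10 with it. The cause of these differences was not tested for any setting.

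The strand ratio of miR-30a kept its sign in the alternatives that estimated it anew, between 1.17 and 1.48. Of all 13 alternatives, 9 had an adjusted p of at most 0.05. Among the 13, diffSpliceDGE gave only a p-value, and the replicate block cannot change this difference in a balanced design. Leaving out 1 library gave 1.18 to 1.48. edgeR's diffSpliceDGE, added after seeing the data, gave an adjusted p of 0.00215 for miR-30a and 0.373 for miR-30e. That of miR-30e ranged from 0.48 to 1.28 when a library was left out, and was not computed with at least 10 counts or after thinning, where a strand of miR-30e was filtered out. The share of counts in the 5p members, -0.62 percentage points between groups, ranged from -0.72 to -0.53.

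With the replicate block the difference of the miR-30a ratio was 1.28 with a limma adjusted p of 0.0546. In the blocked edgeR fit 3 members had an adjusted p of at most 0.05, where 23 of all 105 miRNAs did. The deviations of same-numbered libraries correlated at -0.13, 0.13 and -0.03, and those of differently numbered libraries at between -0.13 and 0.20. With 3 libraries per group these values cannot settle whether the numbers pair the samples. Both miR-30e strands and miR-30c-5p had at most 58 reads in any library, and their intervals or standard errors are wide. miR-30e-3p gave no adjusted p with DESeq2, and no value with at least 10 counts, after thinning or without EV_soft replicate 1. miR-30e-5p gave no value with at least 10 counts.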

Other observations

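Strand ratios of 6 hairpins outside the family were measured in the same fit. That of miR-125a was the only one of these with a limma adjusted p of at most 0.05. Its 3p strand made up 20%, 9.68% and 16.5% of the 120, 217 and 249 reads of both strands in EV_soft, and 39.0%, 34.5% and 34.4% of the 59, 55 and 61 reads in EV_stiff. The groups did not overlap. The log2 ratio of 3p to 5p reads was higher by 1.68 in EV_stiff (limma adjusted p = 0.00446 over 8 hairpins, exact permutation p = 0.1, the smallest that 3 against 3 allows).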
